A study of Mus musculus with 6 samples.

Results

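The nucleosome remodelling and deacetylase complex (NuRD) is described here through 10 of its subunit genes in the choroid plexus (ChP), namely Chd3, Chd4, Hdac1, Hdac2, Mbd2, Mbd3, Mta1, Mta2, Rbbp4 and Rbbp7. They were taken by symbol from the 24354 gene names of the table, and all 10 were found and all 10 were among the 11601 genes tested. The study compared mRNAs on tagged ribosomes between 3 adult samples (60 days) and 3 samples at embryonic day 16.5 (E16.5), and it took an interest in NuRD beside the ion cotransporter NKCC1. It reported that a CHD4 antibody brought down HDAC1, HDAC2 and MBD3 protein from ChP, and that loss of Chd4 disrupted the developmental rise of NKCC1. It named Chd4 the highest of the CHD genes in its earlier RNA sequencing, which is not part of these data. All 6 samples shared the genotype FoxJ1:cre x bacTRAP (EGFP:L10a), in which Cre under the Foxj1 promoter switches on a ribosomal protein fused to EGFP, and no treatment was given. TRAP purifies these ribosomes with the mRNA they carry, so the cells sampled are those in which Foxj1 drove Cre. The methods describe lateral ventricle ChP pooled from 3 mice or 3 litters for a sample, and the series description names 3 mice per age. The number of animals behind a replicate is thus open, and p-values measure the spread between these samples.

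NuRD joins 2 activities in 1 assembly, the sliding of nucleosomes by an ATPase and the removal of acetyl groups from histones. Most positions in the complex can be filled by either of 2 closely related proteins. CHD3 or CHD4 is the ATPase, HDAC1 or HDAC2 the deacetylase, MBD2 or MBD3 the methyl-CpG-binding-domain subunit, MTA1 or MTA2 the scaffold that holds the deacetylase, and RBBP4 and RBBP7 the WD40 proteins that bind histones. HDAC1, HDAC2, RBBP4 and RBBP7 also serve in other complexes, among them SIN3 and, for the RBBP proteins, the Polycomb complex PRC2.

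Promoters are shown first for Rbbp4, Rbbp7, Hdac2 and Mta1, members whose adult samples all lay below all E16.5 samples. The windows are the 250 bases before the transcription start in RefSeq (GRCm38.p6, the mm10 assembly), 5′ to 3′ on the gene's strand, with CpG dinucleotides in capitals. Rbbp4 is at chr4:129335371-129335620 (minus strand), Rbbp7 at chrX:162760122-162760371 (plus), Hdac2 at chr10:36974294-36974543 (plus) and Mta1 at chr12:113098028-113098277 (plus).
Rbbp4: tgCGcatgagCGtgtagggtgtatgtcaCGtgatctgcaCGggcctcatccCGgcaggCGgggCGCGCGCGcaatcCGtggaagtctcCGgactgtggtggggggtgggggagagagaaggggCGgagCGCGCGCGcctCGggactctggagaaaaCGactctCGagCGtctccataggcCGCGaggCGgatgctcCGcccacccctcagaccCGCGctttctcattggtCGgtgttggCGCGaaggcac
Rbbp7: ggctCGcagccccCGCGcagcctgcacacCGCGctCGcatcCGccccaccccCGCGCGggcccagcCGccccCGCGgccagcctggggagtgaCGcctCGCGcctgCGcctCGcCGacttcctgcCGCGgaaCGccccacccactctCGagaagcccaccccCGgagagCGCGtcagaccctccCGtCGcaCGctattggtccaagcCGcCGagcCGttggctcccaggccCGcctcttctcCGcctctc
Hdac2: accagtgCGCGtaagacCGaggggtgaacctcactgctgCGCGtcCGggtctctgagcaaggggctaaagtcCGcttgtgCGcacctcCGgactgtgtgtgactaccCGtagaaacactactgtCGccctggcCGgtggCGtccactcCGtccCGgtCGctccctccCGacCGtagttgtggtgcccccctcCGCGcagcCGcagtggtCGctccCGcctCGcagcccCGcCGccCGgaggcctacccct
Mta1: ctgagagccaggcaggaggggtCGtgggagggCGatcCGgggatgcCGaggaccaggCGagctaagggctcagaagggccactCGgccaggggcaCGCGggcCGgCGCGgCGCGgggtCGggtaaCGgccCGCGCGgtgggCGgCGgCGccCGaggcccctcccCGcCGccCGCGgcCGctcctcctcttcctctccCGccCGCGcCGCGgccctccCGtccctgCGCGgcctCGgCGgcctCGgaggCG
These windows held 30, 34, 27 and 39 CpG dinucleotides in the same order, where the median over 32851 RefSeq windows of this length was 6. Windows were matched for 7 of the 10 members, the others being Chd3, Hdac1 and Mbd2. Chd4 had 2 windows with 12 and 23 CpG, Mbd3 had 14 and Mta2 had 24, so that all 8 windows lay above the median, also those of Chd4, Mbd3 and Mta2, whose adult and E16.5 samples overlapped. On either strand, the GC box GGGCGG was present in 8 of 8 member windows and in 32.7% of all windows, and the box CCAAT in 4 of 8 and in 33.8%. The E2F-type motifs TTTGGCGC and TTTCGCGC were in 0 of the 8 windows and in 0.417% and 0.256% of all windows. Motifs this rare are seldom met in 8 windows, so their lack carries little weight, and close variants were not searched. The 2 Chd4 windows overlap and share a GC box, and the windows compared with were not matched for CpG content. None of these 4 motifs contains another, and a match describes the letters only.

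Depth differed between the ages. Levels are FPKM, that is, fragments scaled to the length of the transcript and to the mapped reads of the library. Judged by the smallest steps between low values, 1 read per kilobase came to 0.114 to 0.324 FPKM in an adult library and to 0.0635 to 0.0805 FPKM in an E16.5 library, so that the E16.5 libraries were 4.02 to 5.09 times as deep as adult replicate 3, the shallowest. Of the genes tested, 10.3% to 36.4% were listed at 0 in an adult library and 3.68% to 4.02% in an E16.5 library. The microRNA gene Mir6236 took 32.7% to 51.7% of the summed FPKM in adult and 13.3% to 15.002% at E16.5. All changes are log2(FPKM + 1), adult minus E16.5, tested with limma, and the median change over all genes tested was -0.86. Changes of the members are therefore also given relative to that median. In bulk material, fewer cells of a type and less RNA per cell cannot be told apart.

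By limma 1 of the 10 members, Chd3, was higher in adult ChP (2.12% of all genes tested were), and 1, Rbbp7, was higher at E16.5 (8.83% of all genes). The other 8 did not pass an adjusted p of 0.05. The 3 adult values all exceeded the 3 E16.5 values for 1 member (7.39% of all genes) and all fell short of them for 5, Hdac2, Mbd2, Mta1, Rbbp4 and Rbbp7 (31.0% of all genes). The median change of the 10 members was -1.04, close to the -0.86 of all genes, and members ranged from -3.25 to 1.66. With E16.5 replicate 1, 2 or 3 left out, 0 members were called higher at E16.5.

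**Figure D1:**
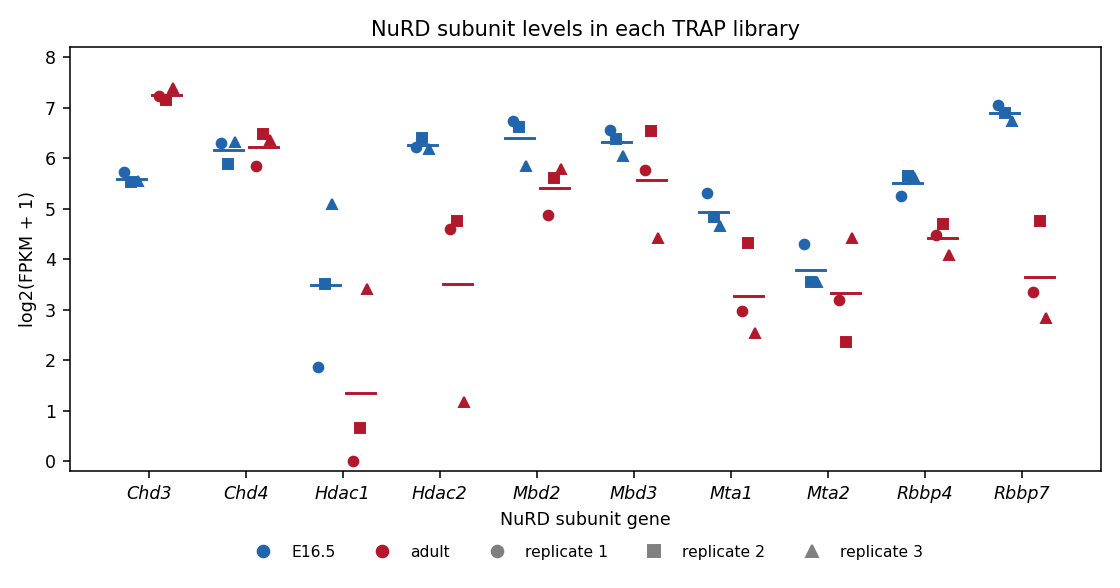
Level of each NuRD gene, as log2(FPKM + 1), in the 3 E16.5 libraries (blue) and the 3 adult libraries (red), with a symbol for each replicate and a bar at the mean. Chd3 is the member with all adult points above all E16.5 points, and Rbbp7 has the largest difference between the means, with all adult points below all E16.5 points.

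Chd3 was the ATPase gene that rose. It stood at 149, 142 and 167 FPKM in adult replicates 1, 2 and 3 and at 51.8, 45.1 and 45.9 FPKM in E16.5 replicates 1, 2 and 3. The adult libraries were all higher, with no overlap, at a mean of 152 ± 12.9 FPKM against 47.6 ± 3.67 FPKM (SD, n = 3 each), which is 3.20-fold. On the log2 scale it rose by 1.66 (limma standard error 0.26, adjusted p = 0.0127), or 2.51 above the median of all genes and higher than 96.1% of them. Under 4 other scalings it stayed 2.09 to 2.57 above the median of all genes, though the call was lost once all libraries were given an equal FPKM sum (change 0.84, limma adjusted p = 0.0874). The call was also lost without E16.5 replicate 1, 2 or 3 when the filter on low values was taken over the samples left (limma adjusted p = 0.0588, 0.0632 and 0.0583), whereas over the same 11601 genes the adjusted p stayed between 0.0134 and 0.0490 with any library left out. The gene (chromosome 11, 69343273 to 69369406, minus strand, mm10) shares no 50-base stretch with another annotated gene. An antisense-named gene, Chd3os, was listed at 0.972, 6.15 and 0 FPKM in adult and 15.7, 4.77 and 5.98 FPKM at E16.5, and whether the authors' quantification used strand is not given in the sources used here. Chd3os was not found under that name in the annotation searched, so the search does not settle whether Chd3 shares sequence with Chd3os.

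Chd4, the other ATPase, was at 56.5, 88.0 and 81.8 FPKM in adult and at 77.8, 58.6 and 79.0 FPKM at E16.5. The ages overlapped and their means were 75.4 ± 16.6 and 71.8 ± 11.4 FPKM (SD, n = 3 each). Its change of 0.059 (limma standard error 0.31, adjusted p = 0.909) took the other sign after rescaling to the same sum of FPKM with and without Mir6236 (-0.76 and -0.10) and with adult replicate 2, adult replicate 3 or E16.5 replicate 2 left out (-0.064, -0.011 and -0.079). Relative to all genes Chd4 lay 0.91 above the median, and 0.45 to 0.97 above it in the other scalings tried.

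The balance of the ATPase genes turned over between the ages. Chd4 made up 60.0%, 56.5% and 63.2% of the summed FPKM of Chd3 and Chd4 in the E16.5 replicates and 27.5%, 38.3% and 32.9% in the adult replicates. Chd4 was thus the larger part in each E16.5 library and the smaller in each adult library. The mean share was 59.9 ± 3.36% at E16.5 and 32.9 ± 5.41% in adult, a difference of -27.0 percentage points (SD, n = 3 each, two-sided exact permutation p = 0.1, the smallest that 3 against 3 can give, and 0.25 adjusted over the 5 pairs compared). Such a share does not move with the scaling of a library, and it stayed between -29.7 and -24.3 points with any library left out.

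**Figure D2:**
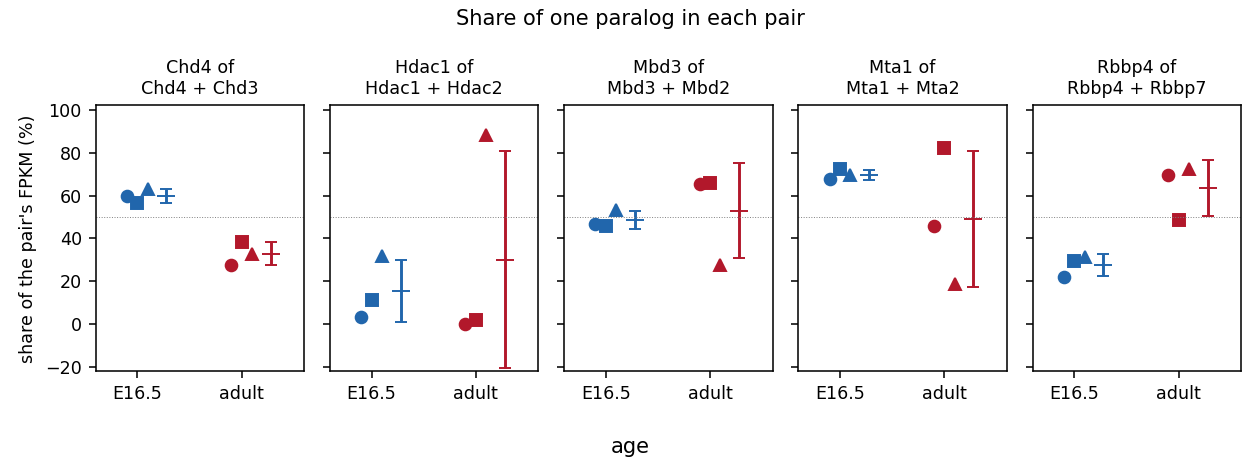
Share (%) of the named paralog in the summed FPKM of its pair, for each E16.5 library (blue) and adult library (red), with circles, squares and triangles for replicates 1, 2 and 3 and bars at the mean ± SD, which for Hdac1 reach below 0. The ages do not overlap for Chd4 (56.5% to 63.2% at E16.5, 27.5% to 38.3% in adult) or Rbbp4 (21.9% to 31.4% at E16.5, 48.7% to 72.3% in adult).

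Rbbp7, a histone-binding WD40 subunit, was the member that fell most. It was at 133, 118 and 106 FPKM in the E16.5 replicates, the highest mean of all 10 members at that age, and at 9.25, 26.2 and 6.15 FPKM in the adult replicates. All adult libraries were far lower, at 13.9 ± 10.8 FPKM against 119 ± 13.7 FPKM (SD, n = 3 each), or 8.58-fold. It changed by -3.25 on the log2 scale (limma standard error 0.52, adjusted p = 0.0136), or -2.39 relative to the median of all genes, and -2.63 to -2.34 relative to it under the other scalings. Without E16.5 replicate 1, 2 or 3 the adjusted p was 0.0619, 0.0618 and 0.0534, and with the filter over the samples left 0.0766, 0.0747 and 0.0672, so the call needed all 3 E16.5 libraries, while the change itself stayed at -3.16, -3.25 and -3.33. Of the 50-base stretches of Rbbp7 (chromosome X, 162760402 to 162779092, plus strand), 11.2% are shared with other genes, 6.97% with the processed pseudogene Gm6382. The gene is X-linked, the study took animals of both sexes, and the make-up of each pool by sex is not given in the sources used here. By the read steps and the longest coding transcript, the adult values stood for about 74.3, 470 and 38.9 reads and the E16.5 values for 3172 to 3803.

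Rbbp4, its paralog, was at 21.3, 24.9 and 16.1 FPKM in adult and 37.4, 49.2 and 48.3 FPKM at E16.5. The adult libraries were lower without overlap, at 20.8 ± 4.44 against 45.0 ± 6.60 FPKM (SD, n = 3 each, 2.17-fold), but the change of -1.09 (standard error 0.36) had a limma adjusted p of 0.0882 and lay -0.23 from the median of all genes. Other genes share 17.2% of its 50-base stretches. Rbbp4 supplied 69.7%, 48.7% and 72.3% of the summed FPKM of Rbbp4 and Rbbp7 in the adult replicates and 21.9%, 29.4% and 31.4% in the E16.5 replicates. The adult libraries all held the larger Rbbp4 share, 63.6 ± 12.9% against 27.6 ± 4.99%, a difference of 36.0 percentage points (SD, n = 3 each, two-sided exact permutation p = 0.1, adjusted 0.25).

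The deacetylase Hdac2 was at 74.0, 83.2 and 71.7 FPKM at E16.5 and at 23.2, 26.0 and 1.27 FPKM in adult replicates 1, 2 and 3. All adult libraries were lower, and adult replicate 3, where the value stood for about 12.0 reads, was far below replicates 1 and 2. The means were 16.8 ± 13.6 and 76.3 ± 6.07 FPKM (SD, n = 3 each, 4.53-fold lower in adult). The change was -2.76 (standard error 0.91, limma adjusted p = 0.0891), or -1.90 relative to the median of all genes. Without adult replicate 3 the change was smaller, -1.59, and passed the threshold (limma adjusted p = 0.0163). It also passed after rescaling to the same sum of FPKM (-3.50, limma adjusted p = 0.0251) and with sample weights (-2.12, limma adjusted p = 0.0444). With the same sum of FPKM the median change of all genes was -1.48, and 3238 genes passed as higher at E16.5. Hdac2 did not pass when Mir6236 was left out of the FPKM sum.
Hdac1 was listed at 0, 0.574 and 9.60 FPKM in adult and at 2.66, 10.5 and 33.2 FPKM at E16.5, with overlap between the ages and a spread within each age of over 9 FPKM. Its change of -2.14 (standard error 1.17), or -1.29 relative to the median of all genes, had a limma adjusted p of 0.245. Its reads are uncertain, since other genes share 35.5% of its 50-base stretches, the processed pseudogene Gm10093 alone 31.7%. Hdac2 had no shared stretch. Hdac1 took 3.47%, 11.2% and 31.6% of the pair's FPKM at E16.5 and 0%, 2.16% and 88.3% in adult, the last in the library where Hdac2 was at 1.27 FPKM (two-sided exact permutation p = 1). The difference of 14.7 percentage points turned to -14.3 without adult replicate 3.

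The scaffold gene Mta1 was at 39.1, 27.7 and 24.2 FPKM at E16.5 and 6.85, 19.1 and 4.82 FPKM in adult. Adult libraries were lower without overlap, the change being -1.66 (standard error 0.57, limma adjusted p = 0.1001), or -0.80 relative to the median of all genes. Mta1 passed the threshold without adult replicate 2 (-2.18, limma adjusted p = 0.0323) and after rescaling to the same sum of FPKM (-2.42, limma adjusted p = 0.0263). After that rescaling the median change of all genes was -1.48, and 3238 genes passed as higher at E16.5. Mta1 did not pass when Mir6236 was left out of the FPKM sum. Mta2 was at 18.8, 10.7 and 10.7 FPKM at E16.5 and 8.14, 4.18 and 20.6 FPKM in adult, where replicate 3 exceeded every E16.5 value. Its change of -0.47 (standard error 0.65, limma adjusted p = 0.647) was 0.034 under quantile normalization and 0.013 without adult replicate 2. On the deposited scale Mta2 lay 0.39 above the median of all genes. Mta1 held 67.5%, 72.2% and 69.4% of the pair at E16.5, within 2.35 percentage points (SD), and 45.7%, 82.0% and 19.0% in adult, so that the adult libraries scattered on either side of the E16.5 ones (difference -20.8 points, two-sided exact permutation p = 0.4, adjusted 0.667). The difference was -5.84 points without adult replicate 3 and -37.4 without adult replicate 2.

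Mbd2, which binds methylated CpG, was at 106, 97.7 and 56.7 FPKM at E16.5 and 28.4, 48.0 and 54.1 FPKM in adult. The highest adult value lay just under the lowest E16.5 value. The change was -0.98 (standard error 0.39, limma adjusted p = 0.139), or -0.13 relative to the median of all genes. Mbd3, which binds methylated CpG weakly in mammals and takes the place of MBD2 in a separate form of the complex, was at 94.2, 82.4 and 64.8 FPKM at E16.5 and 53.5, 92.8 and 20.4 FPKM in adult. Its ages overlapped (change -0.75, standard error 0.54, limma adjusted p = 0.367), and the change lay 0.10 above the median of all genes. The Mbd3 share of the pair was near even at E16.5, 46.9%, 45.8% and 53.4%, and 65.4%, 65.9% and 27.4% in adult (difference 4.21 points, two-sided exact permutation p = 0.8). It was -2.03 and -2.31 points without adult replicates 1 and 2, and 17.0 without adult replicate 3.

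**Figure D3:**
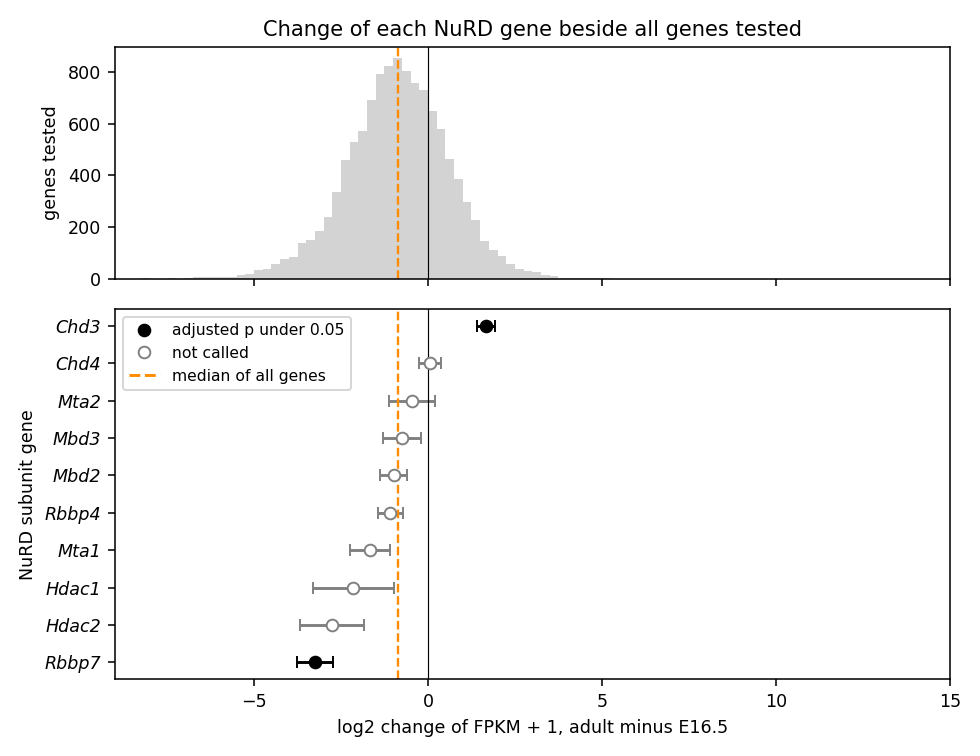
Upper panel, the number of tested genes by log2 change, adult minus E16.5, with the median of all genes as a dashed line. Lower panel, the change of each NuRD gene with its standard error, where filled points (Chd3, 1.66, and Rbbp7, -3.25) passed an adjusted p of 0.05 and open points did not, and Chd4 and Mta2 changed sign under other scalings.

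The order of the members differed between the ages. In adult it ran from Chd3 through Chd4, Mbd3, Mbd2, Rbbp4, Hdac2, Rbbp7, Mta2 and Mta1 to Hdac1, and neighbours were apart beyond their ranges only between Chd3 and Chd4 and between Mbd2 and Rbbp4. At E16.5 it ran from Rbbp7 through Mbd2, Mbd3, Hdac2, Chd4, Chd3, Rbbp4, Mta1 and Hdac1 to Mta2, and only Chd4 and Chd3 were apart. Within a library, Chd3 stood above 97.2% to 98.2% of the genes tested in adult and above 84.1% to 86.5% at E16.5. Chd4 stayed high at both ages, above 92.6% to 95.0% and 88.1% to 92.4% of genes. Rbbp7 went from 94.8% to 95.6% at E16.5 to 54.4% to 78.1% in adult, and Hdac2 from 91.1% to 92.2% to 43.7% to 78.8%.
Added up, the 10 genes came to 635, 583 and 540 FPKM at E16.5 and 356, 471 and 382 FPKM in adult. Chd3 and Chd4 supplied 20.4%, 17.8% and 23.1% of that sum at E16.5 and 57.7%, 48.7% and 65.1% in adult, and Chd3 alone 7.73% to 8.50% and 30.0% to 43.7%. The ATPase genes therefore formed the larger share in each adult library, without overlap. By position, the ATPase genes summed to 119 ± 13.8 FPKM at E16.5 and 228 ± 21.5 in adult, the deacetylase genes to 91.7 ± 14.2 FPKM at E16.5 and 20.2 ± 8.29 in adult, and the RBBP genes to 164 ± 8.71 and 34.6 ± 14.9 (SD, n = 3 each). The MBD genes summed to 167 ± 41.1 and 99.1 ± 36.3 FPKM, with overlap, and the MTA genes to 43.7 ± 12.4 and 21.2 ± 5.51, without. These sums are on the scale as deposited.

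**Figure D4:**
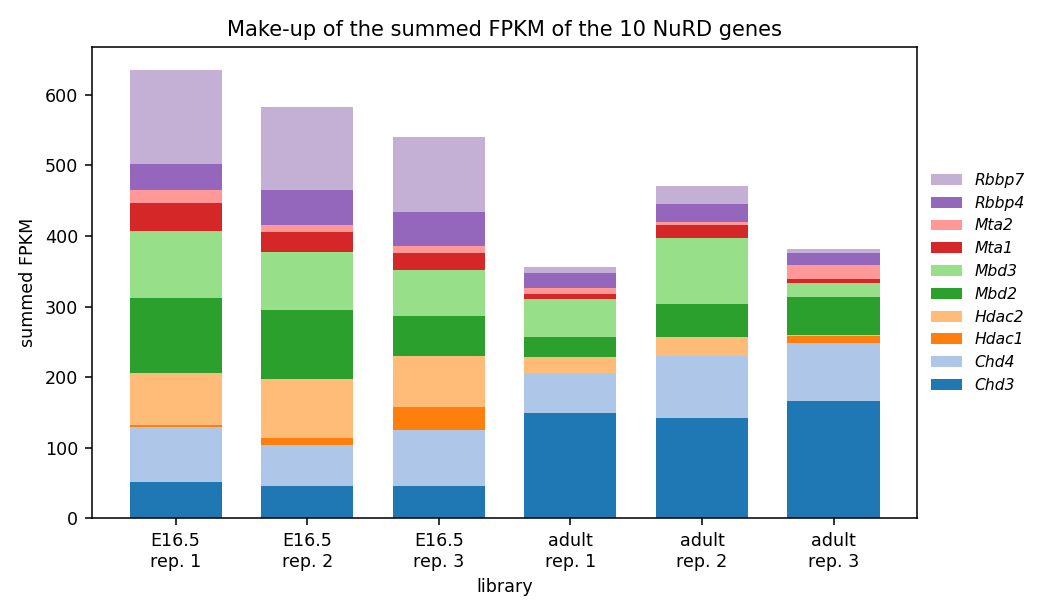
Summed FPKM of the 10 NuRD genes in each library, divided by gene. The E16.5 bars reach 540 to 635 FPKM and the adult bars 356 to 471 FPKM, and the 2 blue segments at the base (Chd3 and Chd4) make up 17.8% to 23.1% of the E16.5 bars and 48.7% to 65.1% of the adult bars.

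Another 5 NuRD subunit genes were measured, and 0 of them passed the test in either direction (0 also had an unadjusted p under 0.05 in limma). Gatad2a, which links the ATPase to the MBD subunit, was at 23.3, 37.3 and 66.3 FPKM in adult and 11.2, 24.5 and 19.6 FPKM at E16.5 (change 1.10, limma adjusted p = 0.186). Its paralog Gatad2b was at 33.7, 29.5 and 26.6 and at 38.03, 9.24 and 30.5 FPKM (0.40, limma adjusted p = 0.639, and -0.39 after rescaling to the same sum of FPKM). Mta3 was at 9.71, 10.3 and 41.1 in adult and 10.2, 14.2 and 15.9 FPKM at E16.5 (0.28, limma adjusted p = 0.787, and -0.50 on that scale). Chd5, an ATPase known mainly from neurons, was at 1.27 to 5.92 FPKM in all 6 libraries (0.28, limma adjusted p = 0.818, and -0.31 on that scale). The small subunit gene Cdk2ap1 was at 1.46, 1.29 and 6.86 in adult and 0.0761, 0 and 4.14 FPKM at E16.5, and other genes share 56.1% of its 50-base stretches. The ages overlapped in all 5, and their median change was 0.40.

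Genes of the wider machinery with which NuRD shares partners were taken as 6 lists of other chromatin genes, which with the 5 other subunits made 7 lists of 121 genes, of which 109 were tested. By limma 0 of the 109 were higher in adult (3 at an unadjusted p under 0.05) and 13 were higher at E16.5, which is 11.9% against 8.83% of all genes, and the median change of -0.87 was near the -0.86 of all genes. All adult values fell below all E16.5 values for 46 of the 109 (31.0% of all genes). They all lay above them for 6 of the 109 (7.39% of all genes). The NuRD partners and recruiters had 0 calls in either direction of 15 tested (2 in each direction at an unadjusted p under 0.05). Of 7 other CHD remodellers 1 was higher at E16.5, Chd7, mutated in CHARGE syndrome, at 26.3, 16.9 and 14.99 FPKM at E16.5 and 1.42, 1.62 and 0.0294 FPKM in adult (change -3.41, limma adjusted p = 0.0243). Of 26 other class I deacetylases and corepressors 5 were higher at E16.5, including Sap30, a subunit of the SIN3 complex (-3.51, limma adjusted p = 0.0426), Brms1l (-2.95, limma adjusted p = 0.0322) and Hdac8, listed at 0 in all adult libraries and at 4.95 to 12.9 FPKM at E16.5.
Of 13 genes of other complexes that hold RBBP4 or RBBP7, 3 were higher at E16.5, namely Chaf1a, the large subunit of a histone chaperone for replicated DNA (-2.86, limma adjusted p = 0.0435), Ezh2, the methyltransferase of PRC2 (-2.85, limma adjusted p = 0.0423), and Smarca1, the ATPase of NURF (-2.69, limma adjusted p = 0.0206). Of 12 other genes of methyl-CpG binding and DNA methylation 2 were, Tet3, an enzyme that oxidises methylcytosine (-2.76, limma adjusted p = 0.0253), and the DNA methyltransferase Dnmt3a, at 55.6, 70.6 and 81.7 FPKM at E16.5 and 9.02, 9.87 and 11.4 FPKM in adult (-2.65, limma adjusted p = 0.0081). Of 31 genes of the SWI/SNF, ISWI and INO80 remodellers 2 were, the core SWI/SNF subunits Smarcb1 (-4.00, limma adjusted p = 0.0218) and Smarcc1 (-1.39, limma adjusted p = 0.0464). Without E16.5 replicates 1, 2 and 3, 2, 1 and 2 of the 13 were called, and without adult replicates 1, 2 and 3, 7, 12 and 11, and with the filter over the samples left 0 were called without any 1 of the E16.5 libraries. Of the 13, 8 were called with median-ratio scaling, 5 after quantile normalization, 6 at a pseudocount of 0.01 and 1, Dnmt3a, at an adjusted p of 0.01. All 13 kept their sign in the 24 alternatives.

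NKCC1 (Slc12a2), the cotransporter that the study set beside NuRD, was at 216, 203 and 165 FPKM in adult and 35.0, 32.1 and 44.6 FPKM at E16.5 (change 2.36, limma adjusted p = 0.0056). Atp1b1, the beta subunit of the sodium pump (1.79, limma adjusted p = 0.0080), and Klotho (Kl, 6.06, limma adjusted p = 0.0002) were also higher in adult. With the filter over the samples left, the adjusted p of Slc12a2 was 0.0503 and 0.0559 without E16.5 replicates 1 and 2. That of Atp1b1 was 0.0552, 0.0559 and 0.0542 without E16.5 replicates 1, 2 and 3 in the same limma fits.

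The cells sampled carried ChP epithelial markers at both ages. All 14 were tested, of which 6 passed the test as higher in adult (2.12% of all genes) and 2 as higher at E16.5 (8.83% of all genes). Their summed level was 40299 to 55720 FPKM in adult and 3967 to 4532 FPKM at E16.5. Ttr and Enpp2 carried that gap, and the other 12 markers summed to 4490 to 5686 FPKM in adult and 3693 to 4290 FPKM at E16.5. Of the 12, those that passed as higher in adult were Prlr (means 468 in adult and 1.41 FPKM at E16.5), Kl (554 and 7.36), Kcnj13 (796 and 99.4) and Cldn2 (176 and 68.6). Kcne2 (433 and 1058) and Otx2 (167 and 376) passed as higher at E16.5. Folr1 (465 to 707 FPKM in adult, 827 to 1048 FPKM at E16.5) and Clic6 (559 to 769 and 740 to 810 FPKM) were high at both ages, whereas Ttr, at 20922 to 31302 FPKM in adult, was listed at 0 in all E16.5 libraries, and Enpp2 was at 14886 to 18732 and 242.0 to 303 FPKM. The deposited values are FPKM without counts, so whether the 0 of Ttr stands for no reads was not tested. Foxj1, whose promoter drove Cre, was at 37.9 to 62.4 FPKM in adult and 154 to 208 FPKM at E16.5 (change -1.93, limma adjusted p = 0.0127), and the motile cilia markers summed to 183 to 372 and 827 to 1076 FPKM, with 2 of 6 tested higher at E16.5.
Markers of other cell types and of the cell cycle were also measured, with counts of genes higher at E16.5 in brackets and 0 higher in adult. Over all genes tested, 8.83% were higher at E16.5 and 2.12% in adult. Cell cycle markers (2 of 10 tested higher at E16.5) summed to 29.0 to 55.6 FPKM in adult and 69.8 to 126 FPKM at E16.5, with Top2a and Rrm2 listed at 0 in all adult libraries. Of the 10, 4 had all adult values below all E16.5 values (31.0% of all genes tested did). Cdk1 and Mcm2 were at 16.5 and 29.4 FPKM in adult replicate 3, and Ccna2 was at 18.1 FPKM in adult replicate 1. Ccna2 changed the other way (1.13, limma adjusted p = 0.521). Mesenchyme markers (1 of 7) summed to 21.6 to 39.1 and 83.2 to 108 FPKM, and neuron and progenitor markers (0 of 6) to 3.38 to 9.88 and 30.0 to 122 FPKM, the highest in E16.5 replicate 1. Red blood cell markers (2 of 3) summed to 0 to 6.49 and 54.1 to 324 FPKM, with Hba-a2 and Hbb-bs listed at 0 in all adult libraries. Kdr, the 1 endothelial marker tested, was at 0.435 to 7.75 and 12.3 to 36.7 FPKM, and macrophage markers summed to at most 8.48 FPKM in any library. Oligodendrocyte and astrocyte markers (0 of 3) reached 73.0 FPKM in adult replicate 3, mostly Mbp at 58.7 FPKM, and 4.59 to 13.5 FPKM elsewhere. Of 6 reference genes 1, Actb, was higher at E16.5 (change -1.12, limma adjusted p = 0.0368), and the ages overlapped for Hprt (-0.040, limma adjusted p = 0.943). Ppia was listed at 0 in 3 of the 6 libraries. Gapdh was at 1.05, 14.9 and 6.96 FPKM in adult and 31.2, 23.0 and 33.8 FPKM at E16.5 (-2.23, limma adjusted p = 0.101). The part of these genes, of depth and of Mir6236 in the changes of the NuRD members was not tested.

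**Figure D5:**
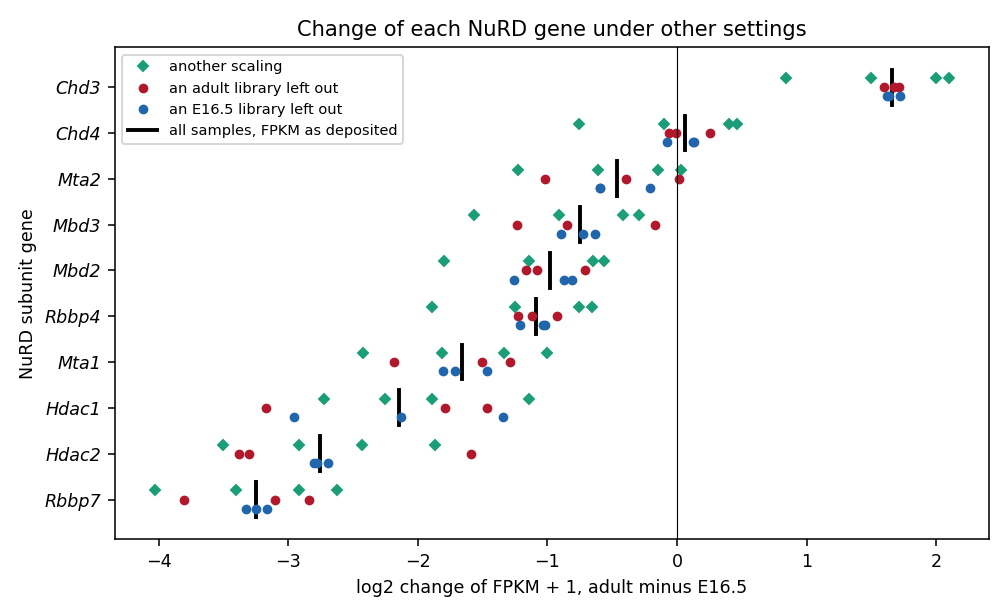
Log2 change of each NuRD gene, adult minus E16.5, with all samples and FPKM as deposited (black bars), under 4 other scalings (diamonds) and with an adult (red) or an E16.5 (blue) library left out. Chd3 stays above 0 and Rbbp7, Hdac2, Hdac1, Mta1, Rbbp4, Mbd2 and Mbd3 stay below 0 in all of these, while Chd4 and Mta2 fall on both sides. The changes are not set against the median of all genes.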

How the data were processed

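The 6 TRAP-seq libraries were grouped by age from their labels, 3 adult and 3 E16.5. The authors aligned single-end reads to mm10 with STAR 2.4.0 (per the labels) and deposited FPKM per gene from Cuffquant of Cufflinks. The annotation they used is not given in the sources used here. FPKM is relative to all mapped reads, so a gene that takes much of a library lowers the rest. The deposited table holds no counts, so the study's count test was not repeated here.

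The deposited FPKM were analysed without rescaling. All genes averaging over 1 FPKM (11601) entered limma 3.58.1 (R 4.3.3) as log2(FPKM + 1), with age as the only term and a trend in the prior variance. Benjamini-Hochberg adjustment ran over all of them, at 0.05. Fold changes on this scale understate those of low genes. The steps were tested on simulated data. Paralog shares are the percent of a pair's summed FPKM, compared by two-sided exact permutation tests. Read steps came from 1305 single-transcript genes, of which only 18 to 35 low values per library entered the fit. Of those values, 66.7% to 90.5% lay within 0.1 of a whole read. Depths and read counts are therefore approximate. Shared 50-base stretches and positions came from the GENCODE annotation of mm10 and promoters from RefSeq. The genes named were all members, the other subunits, NKCC1, Atp1b1 and Klotho, the called genes of each chromatin list (at most 3 higher at either age), and the leading, defining or contrasting markers. One gene that this rule takes is not reported here. The members and lists were chosen with earlier results of these data known.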

Additional observations from a re-analysis of the deposited data

How the results depend on the processing

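With the filter fixed on all samples, the number of genes higher in adult and at E16.5, 246 and 1024, was 119 and 3238 after rescaling to the same sum of FPKM, 569 and 504 after quantile normalization, 348 and 660 with median-ratio scaling, 158 and 949 without a trend, 56 and 132 at an adjusted p of 0.01, and 327 and 1678 for genes with FPKM above 1 in every sample of one age. With 1 library left out it ranged from 90 to 338 and from 349 to 1704, and with the filter taken over the samples left, an alternative added after seeing the data, from 27 to 357 and from 16 to 1704. Members called higher in adult (1) were 0 after rescaling to the same sum, 0 at an adjusted p of 0.01, 1 with any library left out, and 0 to 1 in the added alternative. Members called higher at E16.5 (1) were 5 after rescaling to the same sum (Hdac2, Mbd2, Mta1, Rbbp4 and Rbbp7), 2 with sample weights, 0 at an adjusted p of 0.01 and 0 to 2 with 1 library left out, in the added alternative too. When Mir6236 was left out of the sum that was made equal, 195 genes passed for adult and 1334 for E16.5. In that setting 1 member was called in each direction, Chd3 for adult and Rbbp7 for E16.5, the same members as on the deposited scale. The cause of the shifts between settings was not tested.

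The median change of all genes was -0.58 with median-ratio scaling, -1.48 after rescaling to the same sum, -0.99 without Mir6236 and 0.01 after quantile normalization. Equal sums took Chd4 (0.059) to -0.76, or -0.10 without Mir6236, and Chd5, Mta3 and Gatad2b to -0.31, -0.50 and -0.39. Mta2 (-0.47) became 0.034 after quantile normalization and Mta3 -0.092 with sample weights. With 1 library left out Chd4 ranged from -0.079 to 0.25, Mta2 from -1.02 to 0.013, Chd5 from -0.17 to 0.68, Mta3 from -0.37 to 0.62 and Gatad2b from -0.19 to 0.78. Other members kept their sign in all 24 alternatives, Chd3 being called in 19 and Rbbp7 in 17. The difference in the Hdac1 share ranged from -14.3 to 29.8 points with 1 library left out, and that in the Mbd3 share from -2.31 to 17.0.

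With the replicate numbers of the labels as a block, 112 genes passed as higher in adult and 452 as higher at E16.5, with 1 member each, Chd3 and Rbbp7 (adjusted p = 0.0436 and 0.0245), and 4 of the 13 other chromatin genes. The numbers did not pair the samples, since same-numbered deviations correlated at 0.00089, 0.0439 and 0.0150, and not every sample correlated best with its own number. Depth limits the low adult values, such as Hdac2 in adult replicate 3 at about 12.0 reads.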
